A study of Mus musculus with 6 samples.

Results

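The RB family and the E2F factors were followed through DMSO-induced differentiation of MEL cells, an erythroleukemia line of the mouse that is blocked at the proerythroblast stage and matures when DMSO is added. The 10 genes were Rb1, Rbl1 and Rbl2, which make up the RB family, and E2f1, E2f2, E2f3, E2f4, E2f6, E2f7 and E2f8, of 23896 genes named in the count files. They were chosen by name, each as the RefSeq transcript with the highest mean count, and all 10 passed the filter on low counts that left 12381 genes for testing. The data were mRNA-seq libraries of cultures collected at day 0, before DMSO, and after 2 and 4 days in 2% DMSO, with 2 biological replicates per day and 6 libraries in all. All cultures were of the one line, which is transformed, and there were no untreated cultures at days 2 and 4, so that days of treatment and days of culture cannot be told apart.

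RB proteins are repressors that hold E2F factors on the promoters of genes needed for DNA replication and mitosis until cyclin-dependent kinases phosphorylate them. Rb1 binds mainly the activating factors E2F1, E2F2 and E2F3, whereas the RB-like proteins p107 (Rbl1) and p130 (Rbl2) bind mainly E2F4 and E2F5 and, together with the MuvB core, form the DREAM repressor of resting cells. E2F6, E2F7 and E2F8 repress without RB proteins. In erythroblasts the last divisions are coupled to maturation, and loss of Rb1 or of E2f2 is known to disturb the exit from the cell cycle in this lineage.

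Counts on transcripts summed to between 35294930 and 53899476 per library, where a read shared by transcripts of a gene can be counted more than once. Erythroid markers were present in every library, and the summed level of the 11 markers measured was 1186 and 1280 CPM (counts scaled to library size by TMM, a trimmed mean of log ratios between libraries) at day 0, 3723 and 4362 at day 2, and 13053 and 15110 at day 4. The globin gene Hba-a1 made up 9793 and 11460 CPM of the last sum. Of the 11 markers 9 were called higher and 2 lower at day 4 against day 0, the lower ones being the transcription factors Klf1 (-0.54 on the log2 scale) and Nfe2 (-0.52). Globin transcripts took 0.0342% to 0.0427% of counts at day 0 and 3.85% to 4.13% at day 4. Summed markers of granulocytes and monocytes, mast cells, lymphocytes and fibroblasts reached at most 4.92 CPM in any library, with Elane, Itgam, S100a8, S100a9, Tpsb2, Cd3e, Cd4, Cd8a, Ms4a1, Col1a2, Col3a1, Dcn and Lum at 3 counts or fewer in every library. Megakaryocyte markers, some of which erythroid cells share, summed to 271 and 277 CPM at day 0, 215 and 237 at day 2, and 545 and 620 at day 4. Itga2b alone accounted for 531 and 606 CPM at day 4, and of the 5 megakaryocyte markers tested 2 were called higher and 3 lower (Pf4, Gp1bb and Ppbp) over the course; their part in the results below was not tested.

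Promoter sequence is shown for members with and without a match to the E2F consensus, because E2F factors are known to bind the promoters of their own family. The letters searched on both strands were TTTCCCGC, TTTCGCGC, TTTGCCGC and TTTGGCGC, in windows that RefSeq (GRCm38.p6) gave from 250 bases before to 50 bases after a start site. A window was at hand for 8 members, and 4 held a match (Rbl1, E2f2, E2f3 and E2f7), against 2.32% of 27025 windows in all and 4.4% of 9680 windows of tested genes. The lines give the windows of these members and that of Rbl2, which held none, 5′ to 3′ on the strand of the gene, with the matched letters in capitals.
Rbl1 (chr2:157204485-157204784, minus strand): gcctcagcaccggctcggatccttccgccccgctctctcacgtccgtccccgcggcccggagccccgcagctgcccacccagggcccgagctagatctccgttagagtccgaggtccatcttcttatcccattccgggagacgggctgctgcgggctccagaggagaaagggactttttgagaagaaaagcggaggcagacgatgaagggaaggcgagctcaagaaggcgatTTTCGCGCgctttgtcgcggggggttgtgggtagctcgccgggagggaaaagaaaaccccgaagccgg
E2f2 (chr4:136172024-136172323, plus strand): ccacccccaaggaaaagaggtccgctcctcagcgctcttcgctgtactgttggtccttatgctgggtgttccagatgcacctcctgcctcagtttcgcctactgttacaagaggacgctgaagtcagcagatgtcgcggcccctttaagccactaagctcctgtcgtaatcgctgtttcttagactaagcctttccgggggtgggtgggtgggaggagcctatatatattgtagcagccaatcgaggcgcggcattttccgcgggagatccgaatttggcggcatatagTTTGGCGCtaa
E2f3 (chr13:29986014-29986313, minus strand): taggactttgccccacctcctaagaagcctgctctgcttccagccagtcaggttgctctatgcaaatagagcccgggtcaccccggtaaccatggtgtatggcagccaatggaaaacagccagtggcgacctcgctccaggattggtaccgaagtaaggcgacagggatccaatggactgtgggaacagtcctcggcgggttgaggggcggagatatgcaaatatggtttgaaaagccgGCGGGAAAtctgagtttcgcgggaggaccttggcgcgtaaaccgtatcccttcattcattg
E2f7 (chr10:110745189-110745488, plus strand): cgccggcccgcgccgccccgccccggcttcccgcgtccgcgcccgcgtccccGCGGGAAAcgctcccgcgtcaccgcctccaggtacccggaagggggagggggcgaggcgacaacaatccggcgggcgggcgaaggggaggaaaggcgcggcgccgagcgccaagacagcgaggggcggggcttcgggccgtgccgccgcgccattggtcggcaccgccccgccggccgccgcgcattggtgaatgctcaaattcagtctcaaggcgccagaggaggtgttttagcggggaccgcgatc
Rbl2 (chr8:91069807-91070106, plus strand): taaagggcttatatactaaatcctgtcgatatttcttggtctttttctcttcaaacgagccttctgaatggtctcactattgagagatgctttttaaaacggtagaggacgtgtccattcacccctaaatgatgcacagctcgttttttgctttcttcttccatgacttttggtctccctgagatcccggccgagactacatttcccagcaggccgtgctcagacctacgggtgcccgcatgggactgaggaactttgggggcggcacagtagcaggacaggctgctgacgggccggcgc

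The match began 18 bases before the start in Rbl1 and 11 bases before it in E2f3, where it lay on the other strand. In E2f7 it began 198 bases before the start, also on the other strand, and in E2f2 it lay in the first exon, at base 40 from the start. The windows of E2f1 and E2f8, which held no match, were built on start sites 466 and 477 bases downstream of the gene's annotated start. That of E2f6 was built on one 56 bases downstream. The 4 members with a match differed in their course: Rbl1 rose and then fell, E2f7 fell after day 2, and neither E2f2 nor E2f3 passed the test between any pair of days.

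The first comparison asked which members had changed after 2 days of DMSO. All 3 RB genes rose, Rb1 by 2.25-fold, Rbl2 by 2.22-fold and Rbl1 by 1.59-fold. Of the E2F factors, E2f4 and E2f8 fell and E2f1 fell slightly, while E2f2, E2f3, E2f6 and E2f7 did not pass the test. Thus 6 of 10 members were called at an adjusted p below 0.05 (edgeR quasi-likelihood test, Benjamini-Hochberg adjustment over all transcripts tested), 3 higher and 3 lower. Over all genes 62.5% were called, 31.0% higher and 31.5% lower, so that the share of members called was near the background. The members' median log2 fold change was 0.05, against 0.01 over all genes tested. These were bulk cultures, in which fewer cells of a type and less RNA per cell cannot be told apart.

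Rb1 (NM_009029, chr14:73192858-73325951, minus strand, 27 exons, mm10), the founding pocket protein, stood at 34.3 and 35.4 CPM at day 0, 82.8 and 74.4 at day 2, and 79.2 and 75.8 at day 4. Both DMSO days lay above both day 0 libraries, and the libraries of days 2 and 4 overlapped. The rise to day 2 was 1.17 ± 0.11 on the log2 scale (standard error here and below; edgeR adjusted p = 4.93e-06), and the change from day 2 to day 4 was -0.02 ± 0.10 (edgeR adjusted p = 0.903). Exons of Lpar6 and Rcbtb2 on the other strand overlap exons annotated for the Rb1 gene, which need not belong to the transcript counted. Whether the counting used strand is not given in the sources used here. The same holds for the other overlaps named below, and coordinates here and below are those of the gene.

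Rbl2 (NM_001282001, chr8:91070057-91123844, plus strand, 22 exons), which encodes p130, had 17.0 and 14.5 CPM at day 0. It reached 36.0 and 33.6 CPM at day 2 and 37.6 and 43.3 CPM at day 4, so that every library after DMSO exceeded both before it. It rose by 1.15 ± 0.13 on the log2 scale to day 2 (edgeR adjusted p = 2.59e-05), and the further difference to day 4 was 0.22 ± 0.13 (edgeR adjusted p = 0.216). Exons of Aktip and Gm45464 overlap those of the Rbl2 gene on the other strand. The 2 other Rbl2 transcripts in the files, NM_001282000 and NM_011250, gave the same log2 fold changes, 1.15 and 0.22. NM_011250 had the same count as NM_001282001 in each library, and NM_001282000 had 7805 counts in all against 7880. These records thus rest on largely the same reads and are not separate measurements.

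Rbl1 (NM_011249, chr2:157145893-157204534, minus strand, 22 exons), which encodes p107 and is itself a known E2F target, took a different course. Its level was 41.2 and 39.6 CPM at day 0, 65.8 and 62.4 at day 2, and 30.8 and 38.0 at day 4. Both day 2 libraries lay above the other 4, and both day 4 libraries lay below day 0. The rise of 0.67 ± 0.12 (log2; edgeR adjusted p = 0.000686) was followed by a fall of 0.90 ± 0.12 (edgeR adjusted p = 0.000627).

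**Figure D1:**
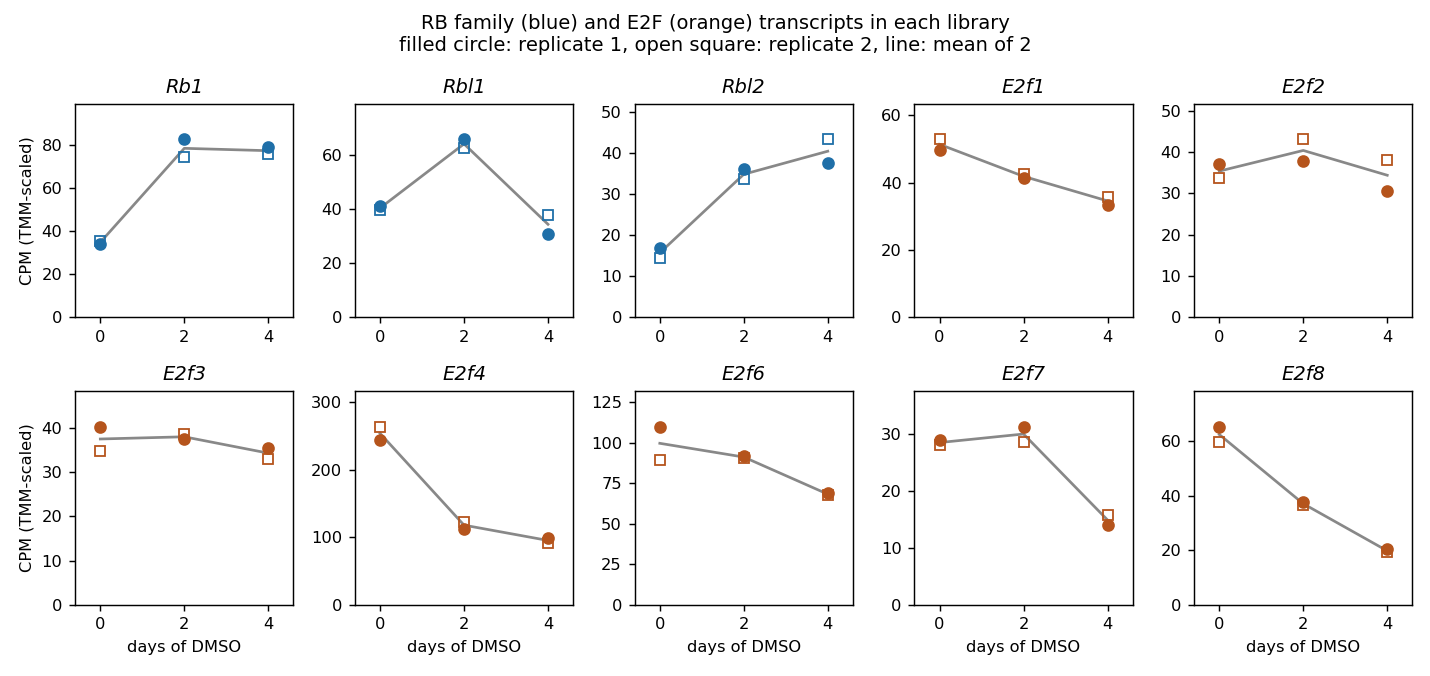
TMM-scaled CPM (vertical axes, each from 0) against days of DMSO for the 10 members, with 1 symbol per library and a line through the means of 2 replicates. Rb1 and Rbl2 rose by day 2 and stayed up, Rbl1 returned to 30.8 and 38.0 CPM at day 4, and E2f4 and E2f8 fell from day 0 on.

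E2f4 (NM_148952, chr8:105297663-105305370, plus strand, 10 exons), the main repressive partner of p107 and p130, stood at 244 and 264 CPM at day 0, 113 and 123 at day 2, and 99.0 and 91.5 at day 4. The days did not overlap, and most of the fall came in the first 2 days, by 1.10 ± 0.11 on the log2 scale (edgeR adjusted p = 1.03e-05). The later difference was -0.31 ± 0.11 and narrowly missed the threshold (edgeR adjusted p = 0.0525); it passed in 6 of 13 fits with other settings.

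E2f8 (NM_001013368, chr7:48866429-48882073, minus strand, 13 exons), an atypical factor that represses E2F target genes, fell in both steps. It measured 65.4 and 59.6 CPM at day 0, 37.6 and 36.5 at day 2, and 20.3 and 19.3 at day 4. No libraries of different days overlapped, and replicates differed by less than the steps between days. The fall was 0.75 ± 0.11 to day 2 (log2; edgeR adjusted p = 0.000137) and 0.90 ± 0.11 from there to day 4 (edgeR adjusted p = 0.000383). An exon of Gm2788 overlaps E2f8 on the other strand.

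E2f1 (NM_007891, chr2:154559400-154569892, minus strand, 7 exons), an activator, declined in small steps. Its levels were 49.8 and 52.9 CPM at day 0, 41.3 and 42.6 at day 2, and 33.4 and 35.8 at day 4, again without overlap between days. The first step was -0.29 ± 0.11 (log2; edgeR adjusted p = 0.0324). That call was lost without either day 2 library (adjusted p = 0.17 and 0.12), without either day 4 library (0.0561 and 0.0554), without the filter on low counts (0.0571) and under scaling by total counts, where the change was -0.09 (adjusted p = 0.464).

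The second comparison, of day 4 with day 2, asked what followed as hemoglobin genes rose further. No member was called higher. Rbl1, E2f6, E2f7 and E2f8 fell, which made 4 of 10 members called, all lower, where 30.3% of all genes were called, 14.0% higher and 16.2% lower. The members' median was -0.29 on the log2 scale, against -0.00 over all genes tested. Rb1, Rbl2, E2f1, E2f2, E2f3 and E2f4 did not pass the test.

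E2f7 (NM_178609, chr10:110745439-110787384, plus strand, 13 exons), the other atypical repressor, kept its level for the first 2 days, with 29.0 and 28.0 CPM at day 0 and 31.3 and 28.6 at day 2. It then stood at 14.1 and 15.7 CPM at day 4, below all earlier libraries. The first difference was 0.07 ± 0.12 (log2; edgeR adjusted p = 0.609) and the second a fall of 1.00 ± 0.12 (edgeR adjusted p = 0.000345). The antisense gene 1700020G17Rik overlaps an exon of E2f7.

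E2f6 (NR_027677, chr12:16810909-16826752, plus strand, 8 exons), a repressor that works with a Polycomb complex, measured 110 and 89.2 CPM at day 0, 91.6 and 90.7 at day 2, and 68.9 and 67.7 at day 4. The day 0 libraries spanned the day 2 ones, while both day 4 libraries were lower than all others. The fall from day 2 was 0.42 ± 0.12 (log2; edgeR adjusted p = 0.0205), and the call was lost when any one of the day 2 or day 4 libraries was left out (adjusted p from 0.0816 to 0.145). The transcript with the highest count is a non-coding record, with 22756 counts in all. The coding one, NM_033270, had 22726 counts and the same differences of -0.13 and -0.42. Both records thus rest on nearly the same reads, and the coding transcript cannot be told apart from the other here.

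E2f2 (NM_177733, chr4:136172274-136196057, plus strand, 7 exons) and E2f3 (NM_010093, chr13:29906575-29986064, minus strand, 7 exons), both activators, were never called. E2f2 had 37.2 and 33.7 CPM at day 0, 37.8 and 43.1 at day 2, and 30.5 and 38.2 at day 4, so that days 0 and 4 overlapped. E2f3 had 40.3 and 34.8 CPM at day 0, 37.4 and 38.6 at day 2, and 35.5 and 33.0 at day 4. The differences of day 4 from day 0 were -0.04 ± 0.14 for E2f2 (edgeR adjusted p = 0.798) and -0.13 ± 0.12 for E2f3 (edgeR adjusted p = 0.33). That neither was called does not show that they were unchanged. Differences well above the standard error can go uncalled, such as that of E2f4 from day 2 to day 4 (-0.31 ± 0.11). Under scaling by total counts E2f2 passed the test at day 2, with a difference of 0.39 (adjusted p = 0.024).

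The third comparison spanned the whole course, day 4 against day 0. Rb1 and Rbl2 were higher at day 4, by 2.22-fold and 2.58-fold. E2f8 was 3.16-fold lower, E2f4 2.66-fold, E2f7 1.91-fold, E2f1 1.48-fold and E2f6 1.46-fold. In all 7 of 10 members were called, 2 higher and 5 lower, and over all genes 71.8% were called, 35.5% higher and 36.4% lower. The members' median was -0.39 on the log2 scale and that of all genes -0.02. None of the 7 E2F members rose.

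On the log2 scale the differences between day 4 and day 0 were 1.15 ± 0.11 for Rb1 (edgeR adjusted p = 2.67e-06) and 1.37 ± 0.13 for Rbl2 (edgeR adjusted p = 3.76e-06). E2f8 fell by 1.66 ± 0.11 (edgeR adjusted p = 3.18e-07) and E2f4 fell by 1.41 ± 0.11 (edgeR adjusted p = 9.13e-07). For Rbl1 the difference was -0.23 ± 0.12 (edgeR adjusted p = 0.111). It was called without replicate 2 of day 4 (-0.40, adjusted p = 0.0385), and for NM_001139516, the Rbl1 transcript with the lower count, where it was -0.35 ± 0.13 (edgeR adjusted p = 0.0296). The calls of Rb1, Rbl2, E2f1, E2f4, E2f6, E2f7 and E2f8 for day 4 against day 0 were kept in 13 of 13 fits with other settings that did not demand a minimum fold change.

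**Figure D2:**
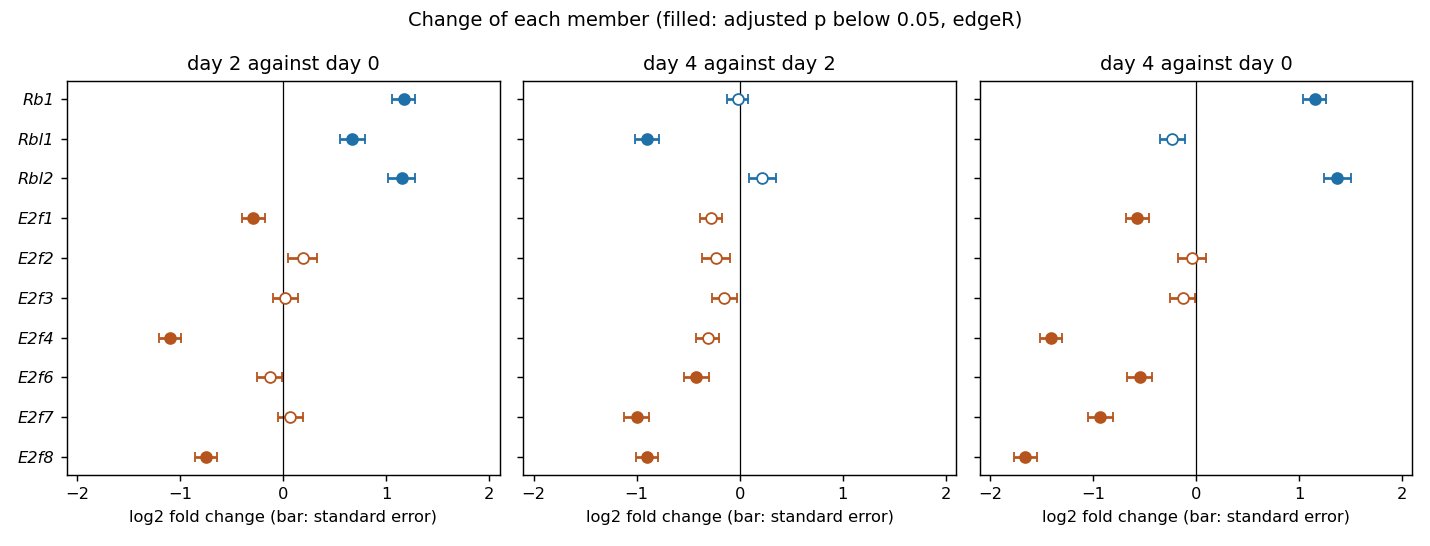
Log2 fold change (horizontal axes) of each member for the 3 pairs of days, with bars of 1 standard error and filled symbols where the edgeR adjusted p was below 0.05. RB genes are blue and E2F genes orange. Rb1 and Rbl2 lie right of 0 at days 2 and 4 against day 0, and in the middle panel the 4 filled symbols all lie left of 0.

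Whether the second step differed from the first was tested directly, as the change from day 2 to day 4 minus that from day 0 to day 2. Of 10 members 5 passed, against 30.0% of all genes tested. The second step was lower than the first for Rbl1 (-1.56 ± 0.20 on the log2 scale; edgeR adjusted p = 0.000496), Rb1 (-1.19 ± 0.18, edgeR adjusted p = 0.000909), E2f7 (-1.08 ± 0.20, edgeR adjusted p = 0.0034) and Rbl2 (-0.93 ± 0.22, edgeR adjusted p = 0.0101). For E2f4 it was higher by 0.79 ± 0.19 (edgeR adjusted p = 0.0118), its fall having come early; that call was lost under scaling by total counts (0.51, adjusted p = 0.0662). For E2f8, which fell in both, the difference was -0.15 ± 0.19 (edgeR adjusted p = 0.578). Day 2 enters both steps, and without its replicate 1 or 2 the count was 2 or 3 members. The calls of E2f4 (adjusted p = 0.186 and 0.086) and Rbl2 (0.144 and 0.0793) were lost without either one, and that of E2f7 without replicate 1 (0.0893).

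Levels were compared between members as TPM, counts divided by transcript length and then by their library sum, which were not TMM-scaled. E2f4 was the highest at each day, at 416 ± 13.7 TPM (SD, n = 2) at day 0, 230 ± 12.4 at day 2 and 163 ± 12.4 at day 4. E2f6 came next, at 138 ± 23.8, 150 ± 1.97 and 98.8 ± 3.19 TPM. At day 0 the order continued with E2f1 at 61.4 ± 1.16 TPM and E2f8 at 55.4 ± 4.94. Rbl1 at 27.2 ± 1.37, Rb1 at 24.5 ± 0.00634, E2f2 at 24.5 ± 2.29 and E2f3 at 24.1 ± 3.12 TPM lay within a few units of each other, and apart from Rbl1 and Rb1 these neighbours overlapped between libraries. E2f7 at 17.0 ± 0.826 and Rbl2 at 10.7 ± 1.46 TPM were the lowest.

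By day 4 the order had changed. Rb1, at 56.9 ± 2.91 TPM, stood above E2f1 at 43.2 ± 1.29. Rbl2 at 28.8 ± 2.28, E2f2 at 24.7 ± 3.43, Rbl1 at 24.1 ± 3.11 and E2f3 at 23.0 ± 1.66 TPM were neighbours. The libraries of E2f2 (22.3 and 27.2 TPM), Rbl1 (21.9 and 26.3) and E2f3 (24.1 and 21.8) overlapped, while those of Rbl2 (27.2 and 30.4) lay at or above them. E2f8 had dropped to 18.3 ± 0.975 TPM and E2f7, at 9.31 ± 0.517, was the lowest member.

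The make-up of the RB family shifted from Rbl1 to Rb1 and Rbl2. Rbl1 held 43.6% ± 0.213 of the summed TPM of the 3 genes at day 0 (SD, n = 2), 35.3% ± 0.691 at day 2 and 21.9% ± 2.33 at day 4. Rb1 went from 39.3% ± 1.78 to 45.2% ± 0.844 and 51.8% ± 3.82, and Rbl2 from 17.2% ± 1.56 to 19.5% ± 0.153 and 26.2% ± 1.49. Per library, the TPM ratio of Rb1 to Rbl1 was 0.869 and 0.933 at day 0, 1.31 and 1.25 at day 2, and 2.69 and 2.08 at day 4, with no overlap between days. The ratio of Rbl2 to Rbl1 was 0.418 and 0.37, then 0.556 and 0.546, then 1.24 and 1.15.

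Within the E2F family E2f4 held 56.5% ± 3.4 of the summed TPM of the 7 genes at day 0 and 40.9% ± 1.33 and 42.9% ± 1.79 at days 2 and 4. E2f6 held 18.7% ± 2.72, 26.7% ± 0.923 and 25.9% ± 0.0454. E2f1, E2f2 and E2f3 each took a larger share at day 4 than at day 0, E2f1 for instance 11.4% ± 0.727 after 8.34% ± 0.386, although none of them was called higher. The summed TPM of the RB genes was 62.4 ± 2.84, 145 ± 9.28 and 110 ± 2.47 over the 3 days, and that of the E2F genes 737 ± 20.1, 561 ± 12.0 and 381 ± 13.0. These sums, being without TMM, can differ between days through scaling alone. Rb1, for instance, went from 65.5 to 56.9 TPM between days 2 and 4, where its fitted log2 change was -0.02. The ratio of the RB sum to the E2F sum was 0.0857 and 0.0836 at day 0, 0.274 and 0.243 at day 2, and 0.277 and 0.3 at day 4. Transcript ratios are not protein ratios, and no test was made on them.

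**Figure D3:**
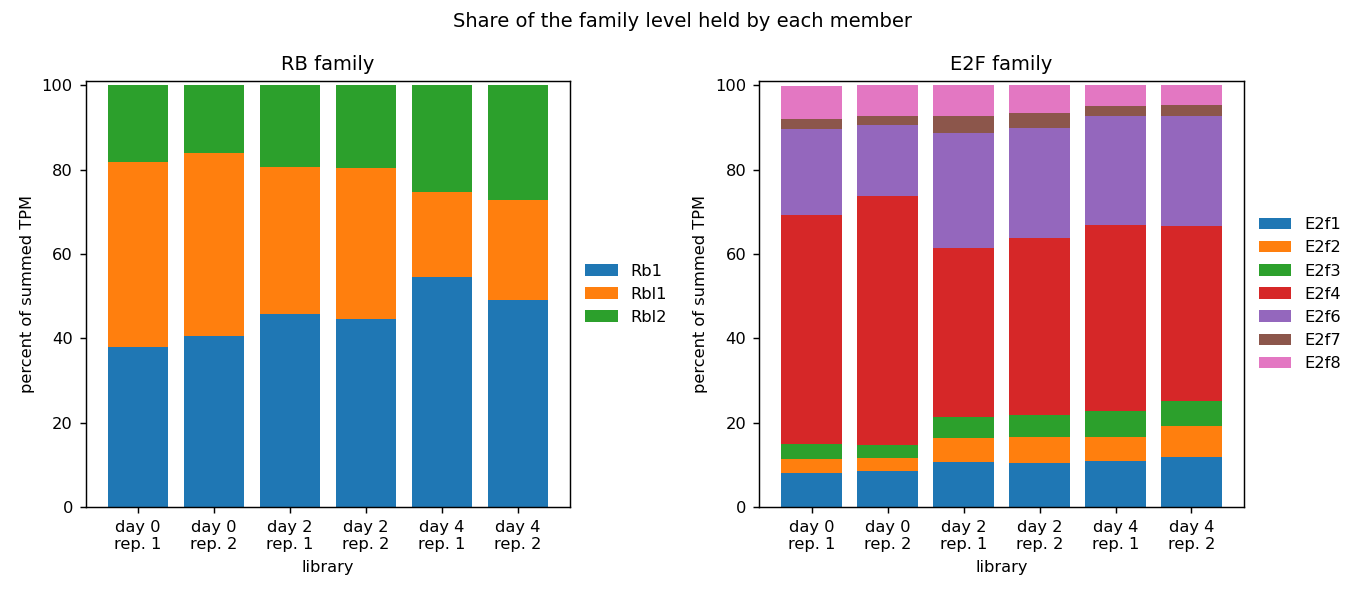
Percent of summed TPM held by each member within the RB family (left) and the E2F family (right), as stacked bars that add to 100, 1 bar per library. The Rbl1 band narrows from 43.7% and 43.4% at day 0 to 20.3% and 23.6% at day 4, and the E2f4 band narrows between day 0 and day 2.

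E2F factors other than E2F7 and E2F8 bind DNA with a DP partner, and the 2 DP genes moved in opposite directions. Tfdp1, which encodes DP1, stood at 93.2 and 77.6 CPM at day 0, 45.0 and 45.5 at day 2, and 34.3 and 31.2 at day 4, and fell by 1.38 ± 0.12 on the log2 scale over the course (edgeR adjusted p = 1.73e-06). Tfdp2, which encodes DP2, stood at 24.8 in both day 0 libraries, 69.8 and 64.1 CPM at day 2, and 64.8 and 72.1 at day 4, and rose by 1.47 ± 0.11 (edgeR adjusted p = 6.6e-07). The TPM ratio of Tfdp2 to Tfdp1 went from 0.0614 and 0.0739 at day 0 to 0.437 and 0.534 at day 4. The level of Tfdp1 is uncertain, because 53.9% of its 25-base words also occur in the pseudogene Gm7390. E2f5, the other partner of p107 and p130, was low, at 4.68 and 4.17 CPM at day 0 and 8.53 and 6.85 at day 4, and rose by 0.80 ± 0.17 (edgeR adjusted p = 0.00133). The protein-coding gene 1810022K09Rik overlaps exons of the E2f5 gene on the other strand, so that the limit on strand given above holds here too.

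The other genes of the pathway were taken from 9 lists that held 135 genes, of which 127 were tested. Genes that E2F is known to switch on at the G1/S transition fell together, 40 of 40 tested at day 4 against day 0, with a median of -1.52 on the log2 scale against -0.02 over all genes tested. By day 2 33 of 40 were lower and none higher, with a median of -0.67, and from day 2 to day 4 39 of 40 fell, with a median of -0.87. Over all genes 31.5% were lower at day 2, 16.2% from day 2 to day 4 and 36.4% over the whole course. Tk1, thymidine kinase, fell by 4.01 ± 0.27 (edgeR adjusted p = 2.78e-07), from 27.7 and 49.6 CPM at day 0 to 2.13 and 2.65 at day 4. Hells, a chromatin remodeller, fell by 2.90 ± 0.13 (edgeR adjusted p = 2.7e-08), from 150 and 144 CPM to 19.6 and 19.8.

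Of 30 genes of the G2/M group, the late targets of DREAM, 28 (93.3%) were lower and 1 (3.33%) higher at day 4, with a median of -1.18. Over all genes 36.4% were lower and 35.5% higher. At day 2 the G2/M group had 16 lower (53.3%) and 1 higher (3.33%), against 31.5% and 31.0% of all genes. From day 2 to day 4 28 fell (93.3%), against 16.2% of all genes. Bub1b, a spindle checkpoint kinase, fell by 2.08 ± 0.12 over the course (edgeR adjusted p = 1.21e-07), and Kif20a, a kinesin of cytokinesis, fell by 1.66 ± 0.15 (edgeR adjusted p = 2.44e-06). The one that rose was Cdc25b, a phosphatase that activates mitotic kinases. It went from 41.4 and 33.2 CPM at day 0 to 160 and 143 at day 4, a rise of 2.02 ± 0.14 (edgeR adjusted p = 3.15e-07).

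The list of MuvB and DREAM subunits also held Mybl2 and Foxm1, which are not subunits of the repressor. Its 7 genes differed among themselves. At day 4 3 of 7 (42.9%) were lower than at day 0 and none higher (median -0.22), where 36.4% of all genes were lower and 35.5% higher. From day 2 to day 4 5 of 7 (71.4%) fell and 1 (14.3%) rose, against 16.2% and 14.0% of all genes. Mybl2, which replaces the repressor on MuvB as cells cycle, fell by 2.32 ± 0.11 (edgeR adjusted p = 2.68e-08), and Foxm1 fell by 1.07 ± 0.11 (edgeR adjusted p = 7.48e-06). Rbbp4 was the third, at -0.47, and the only MuvB subunit among the 3. The other MuvB subunits, Lin9, Lin37, Lin52 and Lin54, lay between -0.22 and 0.19 for day 4 against day 0 and did not pass that test. From day 2 to day 4 Lin9 (-0.58, edgeR adjusted p = 0.00549) and Lin54 (-0.37, edgeR adjusted p = 0.0422) fell and Lin37 rose (0.50, edgeR adjusted p = 0.0158), and Lin9 had risen by day 2 (0.35, edgeR adjusted p = 0.0249).

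The list of cyclins and kinases that act on RB proteins also held Cdc25a, Skp2 and Cks1b, which are neither. Of its 14 genes 13 could be tested, Ccnd1 having no counts. Compared with day 0, 8 (61.5%) were lower at day 4, with Cdc25a, Skp2 and Cks1b among them, and 3 (23.1%) were higher (median -1.04). Over all genes the shares were 36.4% and 35.5%. Among the higher was Cdk3, which had only 98 counts in total. Ccna2, cyclin A2, fell by 1.87 ± 0.19 (edgeR adjusted p = 5.98e-06), with day 0 replicates apart at 193 and 317 CPM, and Cks1b, a kinase subunit, fell by 1.81 ± 0.13 (edgeR adjusted p = 5.64e-07). Ccnd2, a D-type cyclin, rose from 180 and 183 CPM at day 0 to 447 and 468 at day 4, by 1.33 ± 0.11 (edgeR adjusted p = 1.27e-06). Ccnc, cyclin C, rose by 0.40 ± 0.12 (edgeR adjusted p = 0.00936).

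Of 7 genes listed as CDK inhibitors, which keep RB proteins active, 2 were higher (28.6%) and 4 lower (57.1%) at day 4 against day 0 (median -0.51). Over all genes the shares were 35.5% and 36.4%. Cdkn2b, which encodes p15, rose by 2.02 ± 0.24 (edgeR adjusted p = 1.91e-05) from 1.23 and 1.03 CPM to 4.57 in both day 4 libraries, and Cdkn2c, which encodes p18, rose by 0.60 ± 0.15 (edgeR adjusted p = 0.00333). Cdkn1a, which encodes p21, fell by 1.93 ± 0.22 (edgeR adjusted p = 1.13e-05), and Cdkn2a fell by 1.39 ± 0.10 (edgeR adjusted p = 5.78e-07). The Cdkn2a value is that of its most counted transcript alone, and whether that transcript encodes a kinase inhibitor was not examined. Cdkn1b, which encodes p27, was not called, at 0.32.

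RB corepressors went both ways over the course, 7 higher (43.8%) and 6 lower (37.5%) of 16 (median 0.15), shares near those of all genes (35.5% and 36.4%). Kmt5c, a histone H4 methyltransferase known to bind RB proteins, rose by 2.72 ± 0.15 (edgeR adjusted p = 9.95e-08), from 36.0 and 28.1 CPM to 189 and 233, and its paralogue Kmt5b rose by 0.77 ± 0.14 (edgeR adjusted p = 0.000418). Rbbp7, a histone-binding subunit, fell by 2.06 ± 0.20 (edgeR adjusted p = 3.61e-06) and the deacetylase Hdac2 fell by 0.92 ± 0.12 (edgeR adjusted p = 3.81e-05). Of the 10 genes of the Polycomb complex that holds E2F6, 5 were lower and 1 higher (median -0.35), and the 60% called compare with 71.8% of all genes. Ring1 rose by 1.17 ± 0.14 (edgeR adjusted p = 2.35e-05), whereas Cbx3 fell by 1.11 ± 0.12 (edgeR adjusted p = 9.33e-06) and Yaf2 fell by 0.86 ± 0.12 (edgeR adjusted p = 7.22e-05). Of 8 germline genes known to be repressed by E2F6, Stag3 alone could be tested. It had 102 counts in total and was called lower at day 4 (-2.03 ± 0.73, edgeR adjusted p = 0.0264), with day 0 libraries of 7 and 45 counts. The others had 3 counts or fewer over the 6 libraries.

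Over all lists 96 of 127 genes (75.6%) were lower and 16 (12.6%) higher at day 4 against day 0, where 36.4% of all genes were lower and 35.5% higher. From day 2 to day 4 the total called was 94, and it was 56 without replicate 1 of day 2 and 62 without replicate 2. Over all genes the same contrast called 3749, and 944 and 1622 without these libraries.

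**Figure D4:**
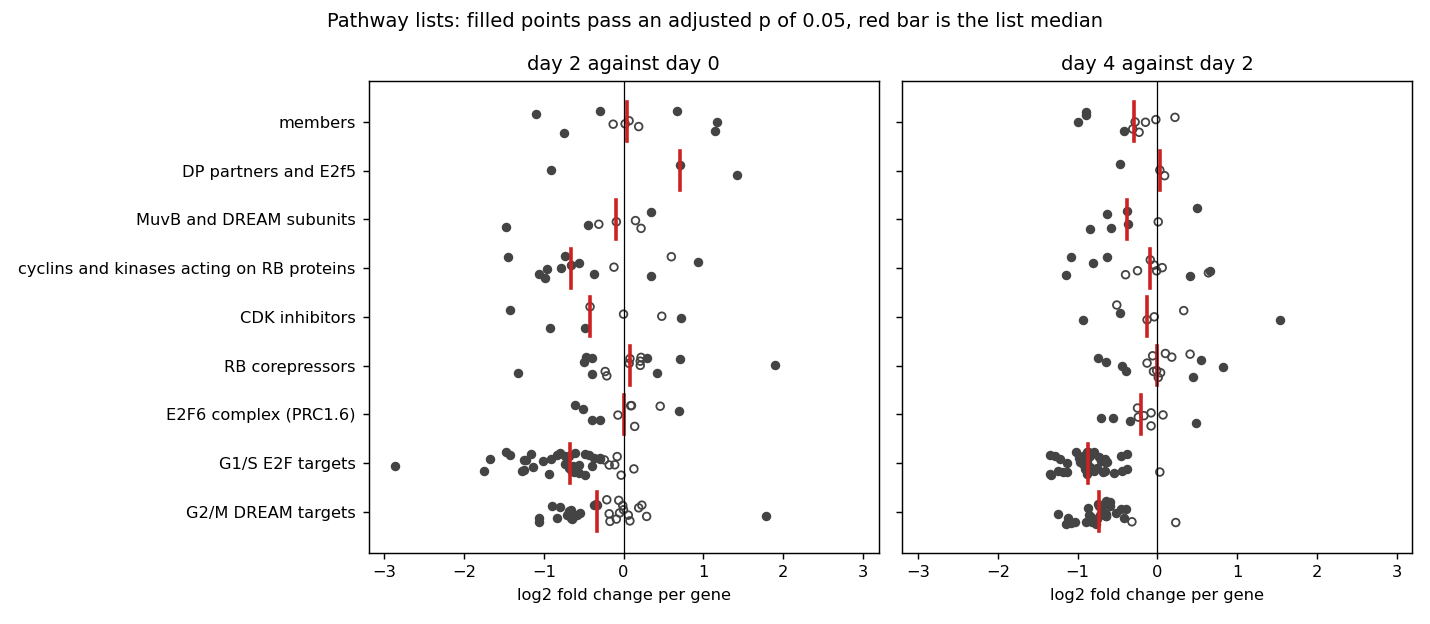
Log2 fold change of each tested gene (points) by list, for day 2 against day 0 (left) and day 4 against day 2 (right). Filled points passed an edgeR adjusted p of 0.05, and red bars are list medians; the germline list is left out. The G1/S targets lie almost wholly left of 0 in both panels, with medians of -0.67 and -0.87.

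The motif was more frequent in the windows of G1/S targets, 12 of 33 (36.4%), than in those of G2/M targets, 1 of 25 (4%). Tested genes with a match, 426 in number, had a median log2 difference of -0.34 between day 4 and day 0, with 50.9% lower and 23.7% higher. For the 9254 without one the median was -0.01, with 36.4% lower and 36% higher. Rbl1, E2f2, E2f3 and E2f7 are among the former, and a match of letters is not a bound site.

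The genes whose course over the 6 libraries was most like that of each member were found by the root mean square difference of centred log2 CPM among 8758 genes. Rb1 was closest to Mpp7 and St7l, and Rbl2 to Nipa1 and Erap1. Rbl1 was closest to Zranb3 and Rnf227, at 0.08 and 0.0945, the largest distances of any pair. E2f1 lay nearest to Tcf3 and Parp2, E2f2 to Tmem98 and Plekha7, and E2f3 to Naa35 and Herc4. E2f4 was nearest to Rangap1 and Dnajc11, E2f6 to Focad and Extl2, E2f7 to Vamp5 and Fanci, and E2f8 to Septin11 and Polr2h. Among the members themselves, mutual nearest neighbours were E2f1 and E2f6 (0.141), E2f2 and E2f3 (0.149), Rb1 and Rbl2 (0.153), and E2f4 and E2f8 (0.259); with 3 days and 2 libraries each, many genes share such a course.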

How the data were processed

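mRNA-seq libraries had been made from MEL cells with a stranded TruSeq kit. Per the labels and methods, the authors trimmed reads with cutadapt, aligned them to mm10 with TopHat, with the library type set to fr-secondstrand, and counted them per RefSeq transcript; HTSeq is named in the submitters' processing notes. The deposited values were raw counts, one table per library with 32654 transcripts. The strand setting of the counting is not given in the sources used here, so reads of a gene and of one overlapping it on the other strand cannot be told apart. The 5 summary rows (no feature, ambiguous and the like) were left out. Reads with no feature came to 50.5% to 58.4% of each library's transcript counts and no-feature reads added together. Reads shared by transcripts can enter that sum more than once, so that this is not an exact share of reads. RefSeq named 32199 transcripts and GENCODE 187, and 268 had no symbol.

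From the counts, edgeR 4.0.16 (R 4.3.3) fitted all 6 libraries in 1 quasi-likelihood model with TMM factors, after filterByExpr by day (18351 transcripts kept). Each gene was represented by its most counted transcript. CPM are TMM-scaled. p-values were adjusted by Benjamini-Hochberg over all transcripts kept and called below 0.05; counting error alone limits low genes, where 3 counts are 0.0557 to 0.085 CPM. Replicates are named biological by the study, with 2 per day. The fit was also run on simulated counts in which 200 transcripts changed. Far more were called in the real data, so that run does not show the error rates here.

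No pairing by replicate number was visible: the deviations of same-numbered libraries correlated at 0.0316, 0.0451 and 0.0791 between days. Such values cannot settle whether the cultures were paired. Alternatives were DESeq2 1.42.0, other scalings, no filter, only 2 days, a replicate block, a minimum fold change, each library left out and the second transcript. Members and lists were chosen with earlier results of these data known. Named genes were all members, E2f5, Tfdp1 and Tfdp2, from each list up to 2 rises and 2 falls, the largest called ones over the whole course with mean log2 CPM not under 1, and the 2 nearest genes per member with mean log2 CPM not under 3. Genes named beside these (Rbbp4, the Lin genes, Cdkn1b, Ccnd1, Cdc25a, Skp2, Cdk3, Stag3, and the markers singled out) were chosen after their values were seen.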

Additional observations from a re-analysis of the deposited data

How the results depend on the processing

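A minimum log2 fold change of 1 left 3 members called at day 2, 1 from day 2 to day 4, 4 over the whole course and 3 for the difference between the steps. It left 22 pathway genes called at day 2 and 18 from day 2 to day 4. The shares of all genes under that minimum were not computed, so these counts cannot be set against a background. With each library left out in turn, the members called for the difference between the steps ranged from 2 to 6, and the pathway genes called for day 4 against day 2 from 56 to 103, the low ends coming without a day 2 library, which leaves that day with 1 library assumed to vary like the others. Scaling by total counts moved the median of all genes at day 2 from 0.01 to 0.21 and the calls from 3841 higher and 3902 lower to 5001 and 2881, and from 1739 and 2010 to 1228 and 2532 between days 2 and 4. Signs turned only in differences that were not called: under total counts E2f1 between the steps (-0.27), E2f2 at day 4 against day 0 (0.07) and E2f6 at day 2 (0.07); for E2f3 at day 2 under DESeq2 and under RLE factors (-0.01 in both); and with a library left out, Rb1 from day 2 to 4 (-0.10 to 0.06, turning at 0.06 and 0.01), E2f1 between the steps (-0.04 to 0.06), E2f2 at day 4 (-0.22 to 0.11), E2f3 at day 2 (-0.09 to 0.13) and E2f6 at day 2 (-0.28 to 0.03). The causes were not tested. With a replicate block 6, 4 and 7 members were called for the 3 pairs of days, against 7697, 3689 and 8874 of all 12381 genes tested. For the difference between the steps 5 members were called with it, and no count over all genes was made. The replicate numbers are not known to pair the cultures. With 2 libraries per day, changes near 0.3 on the log2 scale passed or missed the test depending on the setting, as for E2f1 and E2f4.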
